A study of Mus musculus with 18 samples.

Results

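The 33 genes described here make and run the lysosome of the macrophage. They were taken from the 55401 gene identifiers counted by a list of symbols, each of which matched 1 identifier, and are grouped by what their proteins do. Transcription factors made up 3 of them (Tfeb, Tfe3, Mitf), proteases 8 (Ctsa, Ctsb, Ctsd, Ctsh, Ctsk, Ctsl, Ctsz, Tpp1) and glycosidases 7 (Hexa, Gaa, Gla, Glb1, Gusb, Naglu, Neu1). Lipid-handling proteins of the lumen made up 3 (Lipa, Npc2, Psap), membrane proteins 5 (Lamp1, Lamp2, Npc1, Mcoln1, Scarb2), and subunits of the proton pump, the V-ATPase, 7 (Atp6v0d1, Atp6v0d2, Atp6v1a, Atp6v1b2, Atp6v1c1, Atp6v1h, Atp6ap1).

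Macrophages digest what they engulf in lysosomes, acid compartments in which hydrolases break down proteins, sugars and lipids. The V-ATPase pumps protons into the lumen and so keeps the hydrolases active. TFEB, TFE3 and MITF are related transcription factors that enter the nucleus when the kinase mTORC1 at the lysosomal surface is inactive, and they bind E-box sequences in the promoters of many lysosomal genes.

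RNA sequencing covered 18 libraries in 6 groups of 3, all C57BL/6J by their labels. Every culture was activated with the bacterial endotoxin LPS (lipopolysaccharide, 5 ng/ml, 6 h). Macrophages from the peritoneum of SMIM30-Mut mice received a Smim30 overexpression adenovirus (Mut AdSmim30) or a control adenovirus (Mut AdCtrl) 6 h after seeding, and the virus stayed on for 24 h before LPS. The mouse macrophage line IC-21, of peritoneal origin, was transfected for 24 h with Smim30 siRNA (siSmim30), and cells labelled siControl (siCtrl), whose control reagent is not given in the sources used here, were set against them. Peritoneal macrophages without virus came from SMIM30-Mut mice (Mut) and from wild-type mice (WT). Both virus groups thus carry the mutation, and no group went without LPS. Neither the mutated allele nor the number of mice or cultures behind the replicates is given in the sources used here, so p-values measure the spread between these libraries, which may be technical, and IC-21 stands for 1 cell line.

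Each library held 6855245 to 13456857 read pairs assigned to genes. Levels are given as CPM, counts scaled to library size, with TMM factors over all 18 libraries, which correct for differences in composition. All 8 general macrophage markers were detected in every group, while the resident peritoneal markers Gata6, Timd4, Cxcl13 and Prg4 had a count of 0 in all 6 IC-21 libraries. Smim30 is counted under the name 2610001J05Rik. Its level was 60.4, 61.7 and 65.0 CPM in Mut AdSmim30 libraries and 53.5, 49.6 and 51.4 CPM in Mut AdCtrl libraries, a rise of 0.28 on the log2 scale (adjusted p = 0.0052). That call was lost with DESeq2 (0.0684), in a fit of all 18 libraries (0.0532), without Mut AdSmim30 replicate 3 (0.113) and without Mut AdCtrl replicate 2 (0.059). It fell to 6.41, 8.23 and 8.61 CPM in siSmim30 cells, against 15.8, 14.3 and 15.5 CPM in siCtrl cells (log2 fold change -0.97, adjusted p = 6.17e-08). The count did not separate Mut from WT macrophages, at 50.6, 62.3 and 60.9 CPM in Mut and 51.7, 60.9 and 59.6 CPM in WT, and so does not check the genotype labels. Ribosomal RNA genes took 0.399 to 1.03% of counts in Mut libraries and 1.74 to 2.49% in WT libraries, a difference whose part in the results between Mut and WT was not tested.

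The promoters are shown because the E-box bound by TFEB, TFE3 and MITF is what many lysosomal genes are known to have in common. Whether known targets of these factors guided the choice of members is not given in the sources used here. A share above that of all genes could therefore be foreseen and is given as a description. RefSeq windows (GRCm38.p6) from 250 bases before to 50 bases after the gene start were held for 26 of the 33 members, and not for Ctsb, Ctsh, Npc1, Atp6v0d2, Atp6v1b2, Atp6v1c1 and Atp6v1h. The core CACGTG, which reads the same on both strands, was searched in them together with the longer TCACGTG on either strand, each match of which holds the core. Below, capitals mark the core, each sequence runs 5′ to 3′ on the gene's strand, and the genes are those with a core whose RNA changed with Smim30, followed by examples from the pump and from another enzyme, Gla, which is shown with 1 of its 2 cores.
Gaa (chr11:119267811-119267840, plus strand): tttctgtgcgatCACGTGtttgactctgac
Naglu (chr11:101070009-101070038, plus strand): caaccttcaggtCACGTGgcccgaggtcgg
Mcoln1 (chr8:3500436-3500465, plus strand): ggtcgcgcttgtCACGTGttcagttcaggc
Mcoln1 (chr8:3500462-3500491, plus strand): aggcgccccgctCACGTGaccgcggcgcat
Ctsa (chr2:164833749-164833778, plus strand): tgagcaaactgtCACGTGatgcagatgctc
Ctsa (chr2:164833766-164833795, plus strand): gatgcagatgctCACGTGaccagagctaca
Atp6v1a (chr16:44139373-44139402, minus strand): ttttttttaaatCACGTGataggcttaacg
Gla (chrX:134601215-134601244, minus strand): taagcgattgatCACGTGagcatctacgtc

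The core was found in 11 of the 26 members with a window (42.3%), against 2187 of 27025 genes with a window (8.09%). It was held by 4 of 7 glycosidases (Gaa, Gla, Glb1, Naglu), 3 of 6 proteases (Ctsa, Ctsd, Ctsl), 2 of 4 membrane proteins (Lamp1, Mcoln1) and 2 of 3 pump subunits (Atp6v0d1, Atp6v1a). None of the 3 lipid-handling genes and none of the 3 factor genes held it in the window. Lamp1 had 4 cores within its window, and Ctsa, Ctsd, Gla and Mcoln1 had 2 each. The longer TCACGTG was in 10 of the 26 members (38.5%), all of those with the core except Ctsl, and in 4.29% of all genes. Among 85 other genes of the lysosome and autophagy with a window, 18 (21.2%) held the core. Of the members with a window, the core was in 3 of the 5 that fell and 8 of the 20 not called with the Smim30 mutation, and in 2 of the 5 that fell and 9 of the 18 not called with the Smim30 siRNA. None of the members that rose in either held it. A match describes the letters and is neither a shown binding site nor a cause of any change below.

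Levels between genes were compared per kilobase of counted exon. In WT macrophages Psap, the precursor of the saposins that help to break down sphingolipids, stood first at 7471 CPM per kb, followed by the cathepsins Ctsd at 2841, Ctsb at 1904 and Ctsz at 1512 CPM per kb. Ctsd shares 34.4% of its counted exonic bases with other genes on the same strand, so its count is uncertain, as to a smaller degree are those of Ctsl (6.09%) and Glb1 (5.49%). The lowest 3 were the factor Tfe3 at 20.8, the calcium channel Mcoln1 at 17.7 and Tfeb at 12.7 CPM per kb. Tfeb was last and Mcoln1 next to last in all 6 groups. The first 4 places were the same in the 4 groups of primary macrophages, whereas in IC-21 Ctsz led at 917 CPM per kb in siSmim30 and 939.5 CPM per kb in siCtrl cells, ahead of Psap at 834 and 901 CPM per kb.

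**Figure D1:**
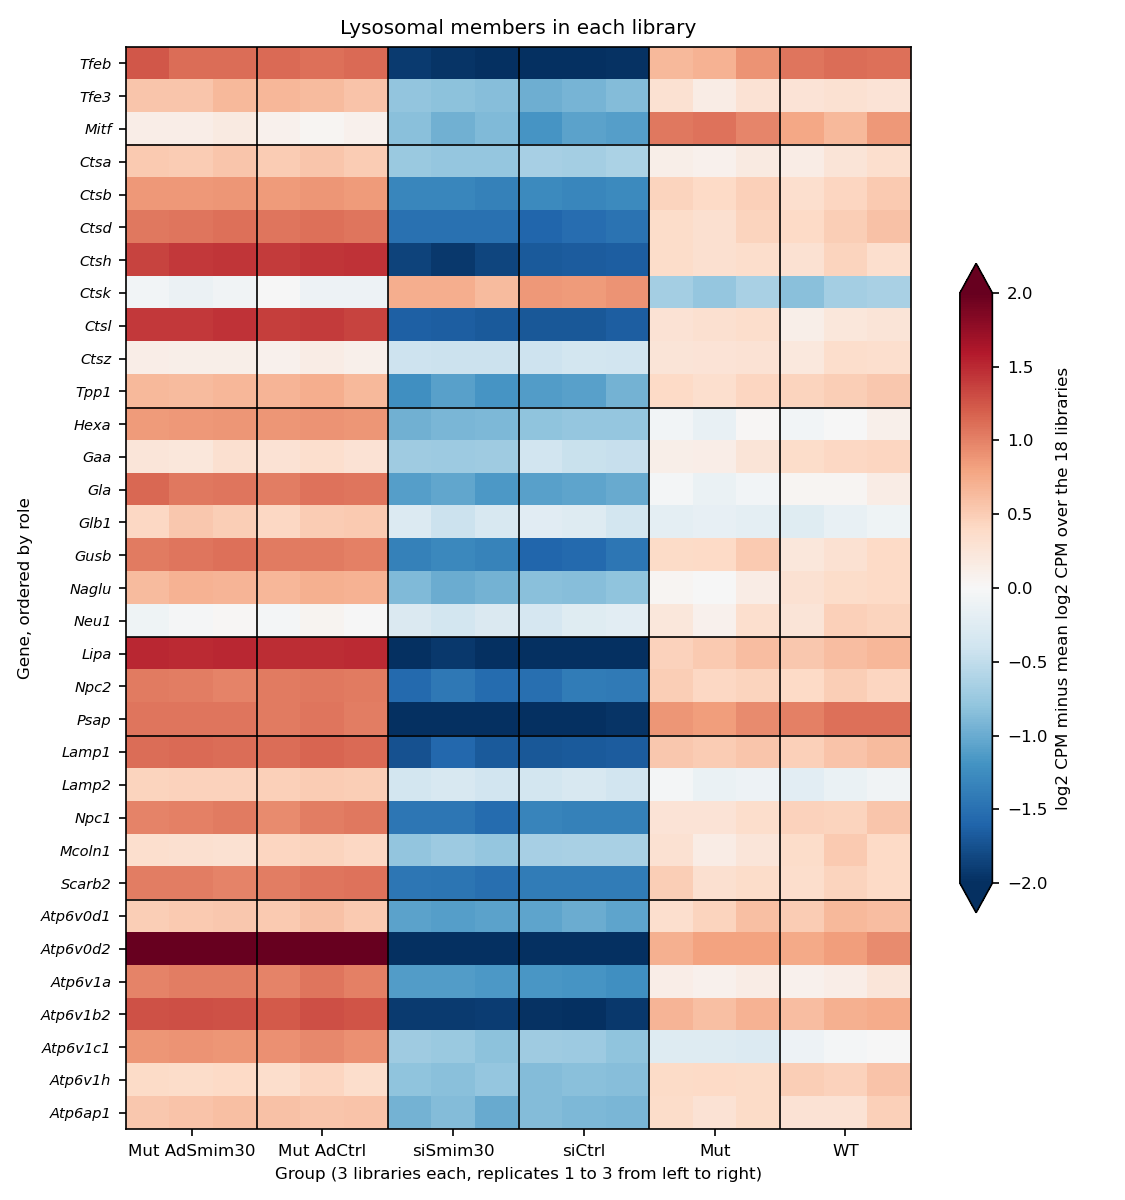
Log2 CPM of each of the 33 genes (down the page, ordered by role) in each of the 18 libraries (across, by group), minus the gene's mean over all libraries. Mut AdSmim30 and Mut AdCtrl look alike and are highest for most genes, both IC-21 groups are lowest for most genes but highest for Ctsk, and Mitf is highest in Mut.

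In Mut against WT macrophages Mitf rose and Tfeb fell, and small falls were also found in Gaa, Naglu, Psap, Npc1, Mcoln1 and Atp6v1c1. Mitf, which in macrophages and osteoclasts drives lysosomal and bone-resorbing genes, had 388, 394 and 365 CPM in Mut libraries, against 317, 292 and 338 CPM in WT libraries. All 3 Mut libraries lay above all 3 WT libraries, and Mitf rose by 0.26 on the log2 scale (SE 0.05, adjusted p = 0.00121). Tfeb, on chromosome 17 from 47737030 to 47792419 in GRCm38, had 52.6, 54.5 and 62.6 CPM in Mut libraries, against 70.5, 73.1 and 72.3 CPM in WT libraries. The groups did not overlap here either, and Tfeb fell by 0.35 on the log2 scale (SE 0.07, adjusted p = 0.00202). Tfe3 was at 196, 175 and 193 CPM in Mut and 192, 195 and 192 CPM in WT libraries, which overlap (log2 fold change -0.05, 95% interval -0.15 to 0.06).

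Of the 33 members, 1 rose and 7 fell between Mut and WT at an adjusted p under 0.05, and 25 did not pass. Without Mut replicate 2 the members called numbered 5, and in a fit of all 18 libraries 13 (3 rose and 10 fell). Over all 12500 genes tested, 3.68% rose and 2.62% fell (6.3% in all), 788 genes that numbered 469 without Mut replicate 2. These shares include genes with few counts, in which shifts as small as the members' pass less easily. Shares over genes of like level were not taken. The members' median log2 fold change was -0.08, beside -0.0057 for all genes. By role, 1 of 3 factors rose and 1 fell, and 0 of 8 proteases, 2 of 7 glycosidases, 1 of 3 lipid-handling genes, 2 of 5 membrane genes and 1 of 7 pump subunits fell. Groups did not overlap in 2 members that were higher and 10 that were lower in Mut, where 12.1% and 9.66% of all genes were so (21.8% in all).

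Both enzymes of the lumen that fell act on sugar chains. Gaa, the acid alpha-glucosidase that degrades glycogen, had 199, 200.3 and 219.5 CPM in Mut, against 236, 243 and 247 CPM in WT libraries. Naglu, which removes N-acetylglucosamine from heparan sulfate, had 159, 153 and 169.9 CPM in Mut, against 191, 198 and 203 CPM in WT libraries. Neither gene's groups overlap, and the log2 fold changes were -0.24 for Gaa (SE 0.05, adjusted p = 0.00271) and -0.31 for Naglu (SE 0.05, adjusted p = 0.000238). The other 5 glycosidases had log2 fold changes of -0.18 to 0.12, the lowest in Neu1 and the highest in Gusb. No protease passed, and their log2 fold changes ran from -0.13 in Ctsa to 0.11 in Ctsl, with 4 of 8 at an unadjusted p under 0.05. A fit of all 18 libraries called Ctsa (0.043), Ctsl (0.0423), Gla (0.0224), Gusb (0.0456) and Neu1 (0.0386). Without WT replicate 1, Ctsa (0.0248), Ctsd (0.0248) and Neu1 (0.0269) were called, and Neu1 also without Mut replicate 3 (0.00876).

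Psap, on chromosome 10 from 60277627 to 60302597, had 17973, 17449 and 18833 CPM in Mut, against 19562, 20870.3 and 21072 CPM in WT libraries, and fell by 0.19 on the log2 scale (adjusted p = 0.00323). The cholesterol transporter Npc1 had 399, 398 and 421 CPM in Mut, against 454, 448 and 483 CPM in WT libraries, and also fell, by 0.20 (adjusted p = 0.00731). Mcoln1, the lysosomal calcium channel TRPML1, had 122, 110.1 and 116 CPM in Mut, against 128, 142 and 130.3 CPM in WT libraries, a log2 fold change of -0.21 (adjusted p = 0.0245). In each of these 3 genes every Mut library was below every WT library. Each call was lost without Mut replicate 2, with adjusted p = 0.0657 for Psap, 0.068 for Npc1 and 0.168 for Mcoln1. It was also lost without WT replicate 2 for Psap (0.1) and Mcoln1 (0.235), without WT replicate 3 for Npc1 (0.0753), and with DESeq2 for Mcoln1 (0.0603).

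Of the pump, the C1 subunit gene Atp6v1c1, whose protein links the catalytic and membrane sectors, had 281, 282 and 278 CPM in Mut, against 315, 329 and 335 CPM in WT libraries. The 3 Mut libraries lay below the 3 WT libraries, and the log2 fold change was -0.23 (SE 0.05, adjusted p = 0.0016). All 7 pump subunits had a negative log2 fold change, from -0.23 to -0.01, and the other 6 did not pass, although Atp6v0d1 did without Mut replicate 3 (0.0133). Among them was Atp6v0d2, a subunit form abundant in osteoclasts and macrophages, at 561, 595 and 595 CPM in Mut and 578, 609 and 657 CPM in WT libraries (adjusted p = 0.375). The calls of Mitf, Tfeb, Gaa, Naglu and Atp6v1c1 were kept under all 12 alternative settings.

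**Figure D2:**
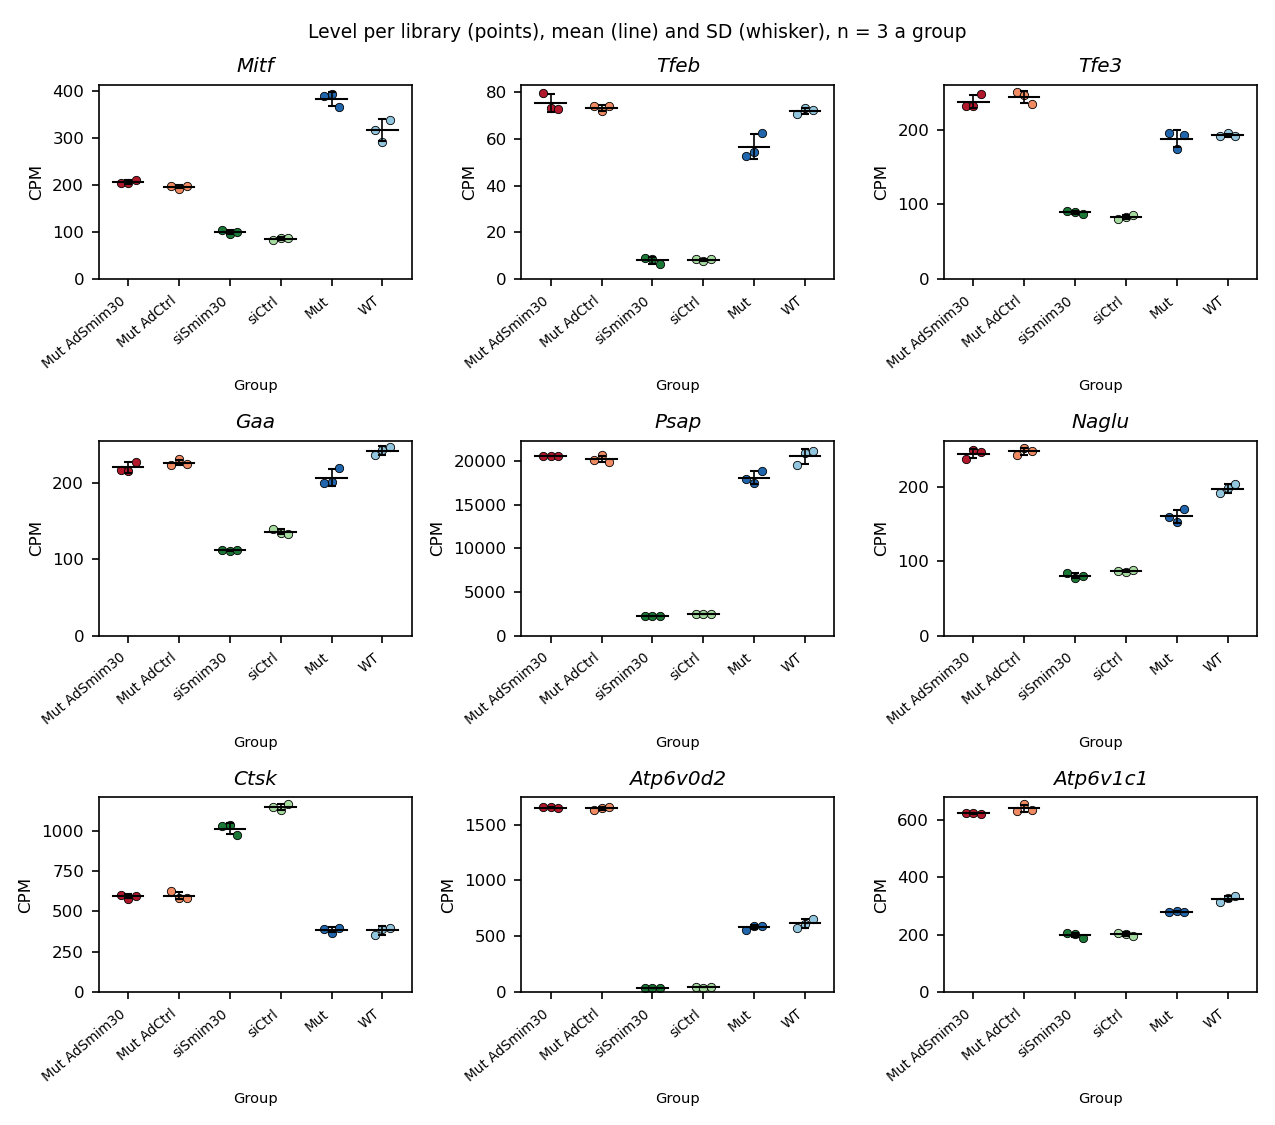
CPM of 9 of the genes in each library (points) with the group mean (line) and SD (whisker), n = 3 a group, each axis from 0. Mitf is highest in Mut and Tfeb lower in Mut than in WT, Gaa and Psap are lower in Mut than in WT and in siSmim30 than in siCtrl, and Atp6v0d2 is highest in both virus groups and lowest in IC-21.

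Other genes of the lysosome were looked at through 6 lists with 105 genes. Between Mut and WT, 5 of the 99 tested rose and 13 fell, with a median log2 fold change of -0.07. Of 32 other enzymes and cofactors 3 rose and 3 fell, and 20 had a negative log2 fold change. The acid phosphatase Acp5 rose by 0.52 (adjusted p = 1.06e-06) and the sulfatase Ids by 0.27. Of other membrane proteins none rose and 4 of 17 fell, by 0.28 in the calcium channel Tpcn2, 0.26 in the metal transporter Slc11a1 and 0.23 in the channel Mcoln2. Among genes that control mTORC1 and TFEB, the GTPase Rragd fell by 0.49 and its partner folliculin (Flcn) by 0.27, and Tfec, a further factor of the MITF family, rose by 0.25. Of the sorting genes Sort1 fell by 0.26 and Vps18 by 0.20. Of the autophagy genes Gabarapl2 rose by 0.35 and Gabarapl1 fell by 0.18. None of 12 further pump genes passed.

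Cell type markers moved in the same libraries. The summed level of 8 macrophage markers was 11734 to 12506 CPM in Mut and 12880 to 14212 CPM in WT libraries (2 of the 8 rose and 1 fell), and that of 7 B cell markers 73.9 to 77.0 CPM in Mut and 101 to 112 CPM in WT (1 of 5 tested fell). The 7 dendritic cell markers summed to 11.2 to 16.99 CPM in Mut and 8.41 to 8.92 CPM in WT (1 of 3 tested rose). The 11 fibroblast and mesothelial markers overlapped in sum between the groups, at 261 to 303 CPM in Mut and 289 to 321 CPM in WT. The sums of 8 resident peritoneal and 7 fused macrophage markers overlapped too, although single markers moved. Of 6 resident markers tested 1 rose and 1 fell (median log2 fold change -0.31), and of 4 fused macrophage markers tested 1 rose and 1 fell. The part of these shifts in the members' values was not tested, and in bulk samples fewer cells of a type and less RNA per cell cannot be told apart.

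In IC-21, siSmim30 against siCtrl cells also showed small shifts in both directions. Mitf had 104, 95.8 and 100.5 CPM in siSmim30 cells, against 82.3, 88.3 and 86.5 CPM in siCtrl cells, and rose by 0.22 on the log2 scale (SE 0.05, adjusted p = 0.00125). Gusb, the beta-glucuronidase, had 229.5, 238 and 230.0 CPM in siSmim30, against 195, 199 and 214 CPM in siCtrl cells, and rose by 0.19 (SE 0.04, adjusted p = 0.000178). For both genes every siSmim30 library was above every siCtrl library. Lipa, the acid lipase that releases cholesterol from its esters, had 305, 323 and 301 CPM in siSmim30 and 303, 274 and 269.5 CPM in siCtrl cells. It rose by 0.13 (adjusted p = 0.0306) although its groups overlap. The call was lost under 7 of 12 alternatives, among them leaving out siSmim30 replicate 1 (0.0547) or 2 (0.245) or siCtrl replicate 2 (0.238) or 3 (0.165), and the adjusted p over all 12 ran from 0.000365 to 0.245.

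Gaa, on chromosome 11 from 119267887 to 119285454, had 112, 110.1 and 112 CPM in siSmim30 cells, against 139.9, 135 and 133 CPM in siCtrl cells. With a log2 fold change of -0.29 (SE 0.04, adjusted p = 6.48e-07) it moved furthest among the members. Cathepsin K (Ctsk), a collagen-degrading protease best known from osteoclasts, had 1033, 1034 and 972 CPM in siSmim30, against 1145, 1131 and 1166 CPM in siCtrl cells, and fell by 0.19 (SE 0.03, adjusted p = 3.71e-06). Hexa, a subunit of the hexosaminidase that degrades gangliosides, had 439, 451 and 459 CPM in siSmim30, against 489, 498 and 498 CPM in siCtrl cells, a fall of 0.14 (adjusted p = 0.00121). In these 3 genes the groups did not overlap. The call of Hexa was lost in the fit of all 18 libraries (0.0647).

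Psap had 2282, 2293 and 2294 CPM in siSmim30, against 2444, 2468 and 2508 CPM in siCtrl cells, and fell by 0.12 (adjusted p = 0.00109; 0.096 in the fit of all 18 libraries). Npc1 had 121, 121 and 114 CPM in siSmim30, against 132, 128 and 129.5 CPM in siCtrl cells, a fall of 0.14 (adjusted p = 0.0483) lost under 9 of 12 alternatives, among them leaving out any 1 of the 6 libraries (0.0754 to 0.254), with a lowest adjusted p of 0.019. The groups of both genes stood apart. Ctsa, the protective protein of neuraminidase and beta-galactosidase, had 833, 818 and 813 CPM in siSmim30, against 877, 867 and 899 CPM in siCtrl cells, and fell by 0.11 (adjusted p = 0.0164, 0.00347 to 0.263 over the alternatives). Of these 5 ended the call, among them leaving out siSmim30 replicate 2 (0.0741) or 3 (0.0772) or siCtrl replicate 3 (0.113). Atp6v0d2 had 39.2, 36.1 and 35.1 CPM in siSmim30, against 45.6, 40.9 and 46.3 CPM in siCtrl cells, and fell by 0.26 (adjusted p = 0.014, 0.00513 to 0.0993 over the alternatives). DESeq2 (0.0574) and leaving out siSmim30 replicate 2 (0.0823) or 3 (0.0967) or siCtrl replicate 1 (0.0626) or 3 (0.0993) ended the call. The siSmim30 libraries of Ctsa and Atp6v0d2, too, were all below the siCtrl libraries. Ctsh just missed the threshold, at 38.9, 37.0 and 39.5 CPM in siSmim30 and 43.8, 44.4 and 44.7 CPM in siCtrl cells (log2 fold change -0.21, adjusted p = 0.05), and passed it under 4 alternatives.

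In all, 3 members rose, 7 fell and 23 did not pass with the siRNA, where 2.39% of the 13576 genes tested rose and 1.09% fell (3.48% in all). Here too the shares include genes with few counts, whereas Ctsa passed at a log2 fold change of -0.11 with an SE of 0.03. Over all genes 472 were called, and 309 without siCtrl replicate 2. The members called numbered 6 without siCtrl replicate 3 and 6 in the fit of all 18 libraries. With library totals in place of TMM factors 2 members rose and 9 fell, and the split over all genes was 269 higher and 226 lower, beside 324 and 148. Groups did not overlap in 6 members that were higher and 14 that were lower in siSmim30 cells, where 10.6% and 8.27% of all genes were so (18.8% in all). The median log2 fold change was -0.05 over the members and -0.0023 over all genes. Falls were seen in 2 of 8 proteases, 2 of 7 glycosidases, 1 of 3 lipid-handling genes, 1 of 5 membrane genes and 1 of 7 pump subunits. Tfeb was at 8.92, 8.64 and 6.41 CPM in siSmim30 and 8.43, 7.74 and 8.57 CPM in siCtrl cells, and its interval of -0.33 to 0.25 is the widest of the members in this comparison. Tfe3 was at 91.1, 89.3 and 87.5 CPM in siSmim30 and 79.9, 83.2 and 86.1 CPM in siCtrl cells (log2 fold change 0.10, adjusted p = 0.308).

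Of the further lysosomal and autophagy genes, 2 of 97 tested rose and 7 fell with the siRNA. Fnip1, a partner of folliculin, rose by 0.29 (adjusted p = 5.21e-08) and the protease Lgmn by 0.13. Of 31 other enzymes and cofactors tested 1 rose and 1 fell, and 22 had a negative log2 fold change. The membrane proteins Laptm4a and Slc17a5 fell by 0.32 and 0.28, and Cd68 by 0.10. Of 12 autophagy genes 3 fell and none rose, namely Wipi1 by 0.42, Gabarapl1 by 0.29 and Map1lc3b by 0.22. Sorting genes and further pump genes had none that passed. The macrophage markers summed to 2023 to 2185 CPM in siSmim30 and 2045 to 2150 CPM in siCtrl cells (0 of 8 rose and 1 fell).

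Mut against WT and siSmim30 against siCtrl share no library. Mitf, Gaa, Psap and Npc1 were called in both, each in the same direction, which is 50% of the 8 members called with the mutation and 40% of the 10 called with the siRNA. Over all genes 96 were called in both, 75 of them in the same direction, which is 12.2% of the 788 and 20.3% of the 472 called. With 8 and 10 of 33 members called, and 7 of the calls falls each time, some shared calls in the same direction could be foreseen. The overlap was not tested against these rates. With 1 library left out, Psap and Npc1 lost their calls with the mutation and Npc1 its call with the siRNA, as given above. The difference between the effects was tested in a model of the 12 libraries. It called 2.51% of 14804 genes (1.25% higher and 1.26% lower), 185 higher and 187 lower, beside 256 and 159 with library totals. It called 0 of the 33 members with edgeR, 9 of which had an unadjusted p under 0.05, while DESeq2 called 1, Atp6v1c1 (adjusted p = 0.0464). The fit of all 18 libraries called Atp6v1c1 (0.0373), Lipa (0.0367) and Ctsk (0.048), and library totals called Ctsk (0.0212). With 1 library left out, Lipa and Naglu were called without Mut replicate 3 and 1 member each without WT replicate 1, siCtrl replicate 1 and siSmim30 replicate 3. The difference was -0.21 in Atp6v1c1 (95% interval -0.33 to -0.08, adjusted p = 0.0773), -0.31 in Tfeb (-0.62 to -0.01, adjusted p = 0.353), 0.20 in Ctsk (0.06 to 0.33, adjusted p = 0.109) and 0.05 in Mitf (-0.10 to 0.19, adjusted p = 0.881). In the edgeR model of 12 libraries, members called in 1 comparison and not in the other were not shown to differ between them, with the calls of Atp6v1c1, Lipa, Ctsk and Naglu under the other settings as exceptions.

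**Figure D3:**
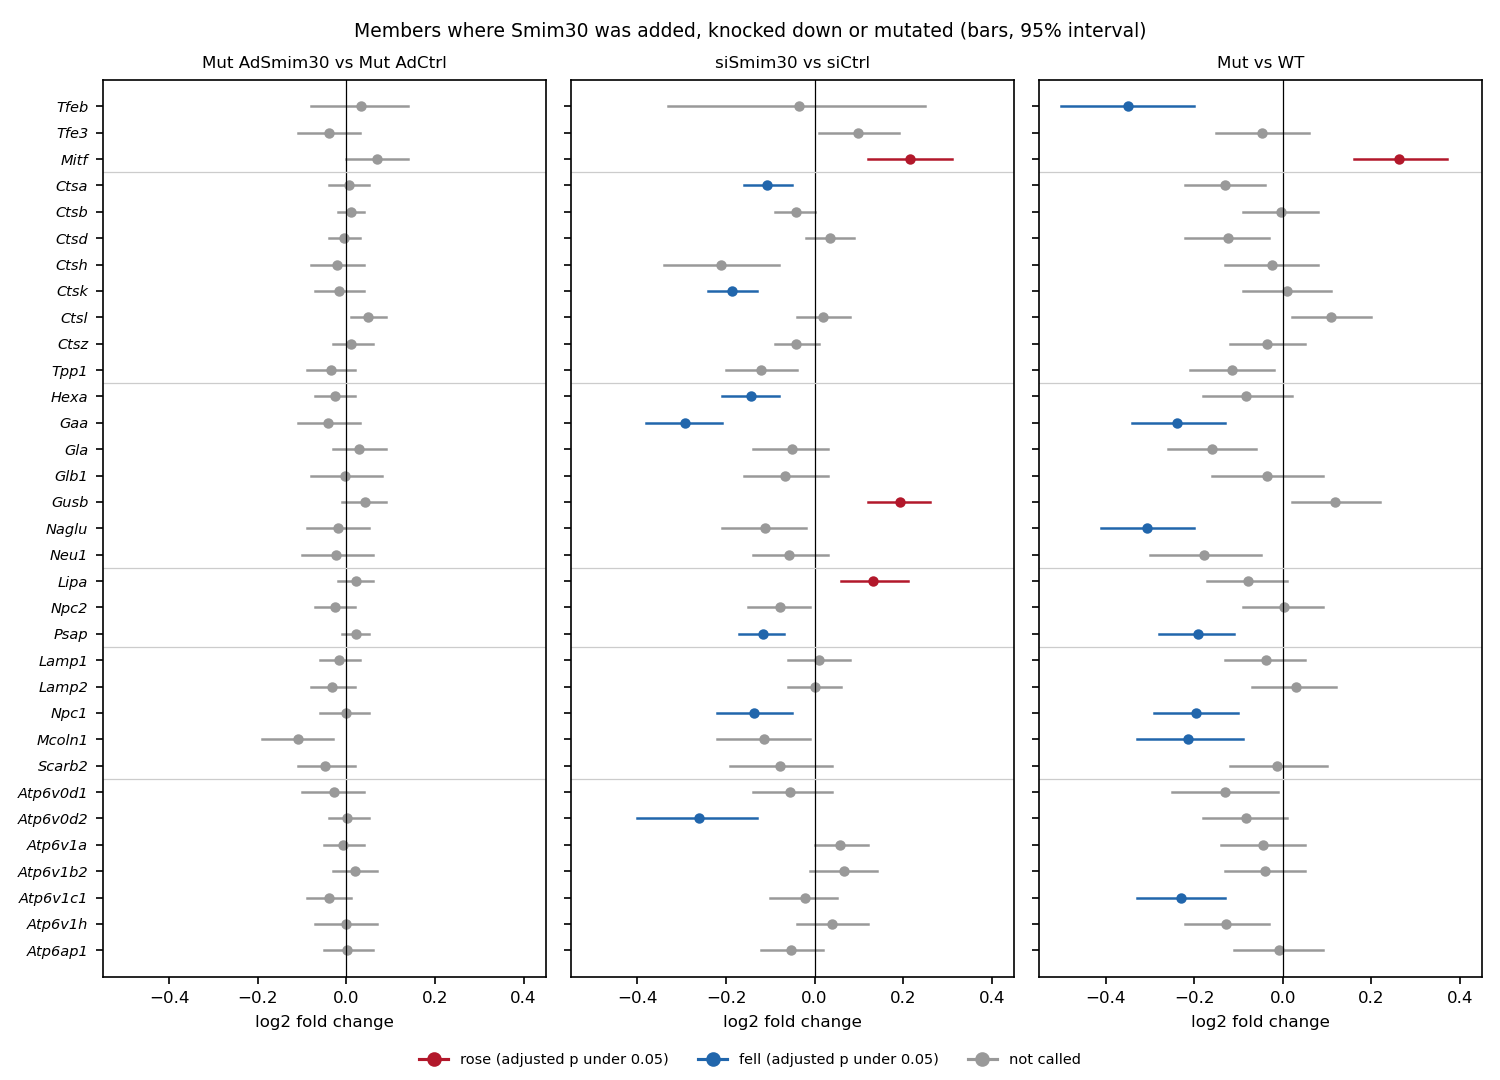
Log2 fold change (point) and 95% interval (bar) of each member with the Smim30 adenovirus, the Smim30 siRNA and the Smim30 mutation, n = 3 libraries a group. No member is called with the virus, 10 are with the siRNA and 8 with the mutation, all within 0.5 log2 units of 0.

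The Smim30 adenovirus in Mut macrophages left no member past the threshold. Of the 33 members 0 were called by edgeR and 0 by DESeq2, and 2 members had an unadjusted p under 0.05. Of the 12701 genes tested 1.43% were called (0.583% higher and 0.842% lower). At so low a share, 0 of 33 does not set the members apart from other genes. The genes called numbered 66 without Mut AdSmim30 replicate 3, 106 without Mut AdSmim30 replicate 2, 82 without Mut AdCtrl replicate 1 and 453 without Mut AdCtrl replicate 3, with 0 members among them each time. The members nearest the threshold were Ctsl, at 3066, 3078 and 3144 CPM in Mut AdSmim30 and 3002, 3027 and 2938 CPM in Mut AdCtrl libraries (log2 fold change 0.05, adjusted p = 0.336), and Mcoln1, at 125, 123 and 123 CPM in Mut AdSmim30 and 133, 135 and 131 CPM in Mut AdCtrl libraries (log2 fold change -0.11, adjusted p = 0.252). In both the groups stood apart, as in 2 members higher and 4 lower in all, where 7.54% and 7.51% of all genes did so (15.1% in all). The 95% intervals of all 33 log2 fold changes lay between -0.19 (Mcoln1) and 0.14 (Tfeb), so no interval held a larger shift. For the 8 members called with the mutation, the intervals were -0.00 to 0.14 in Mitf, -0.08 to 0.14 in Tfeb, -0.11 to 0.03 in Gaa, -0.09 to 0.05 in Naglu, -0.01 to 0.05 in Psap, -0.06 to 0.05 in Npc1, -0.09 to 0.01 in Atp6v1c1 and -0.19 to -0.03 in Mcoln1.

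Of 99 further lysosomal and autophagy genes 1 was called with the Smim30 virus, the autophagy receptor gene Sqstm1, which fell by 0.13 (adjusted p = 0.000132). Fibroblast and mesothelial markers summed to 62.3 to 71.1 CPM in Mut AdSmim30 and 112 to 137 CPM in Mut AdCtrl libraries, and 6 of 7 tested fell. In the same libraries macrophage markers summed to 11502 to 11634 CPM in Mut AdSmim30 and 11625 to 11850 CPM in Mut AdCtrl, although 2 of 8 rose and 0 fell. The part of these marker shifts in the members' values was not tested. Smim30 RNA itself differed by 1.21-fold between these groups. Between Mut AdCtrl and Mut it was lower by 0.19 on the log2 scale (edgeR, adjusted p = 0.0418), a call lost under 8 of 12 alternatives.

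The widest differences among primary macrophages lay between Mut AdCtrl and Mut, which differ in the control virus and in the hours with it before LPS. These groups also belong to different parts of the study design, so that virus, culture and part cannot be told apart. Mut is also a group of the comparison with WT, and Mut AdCtrl of that with Mut AdSmim30, so the values below share libraries with those above. Of the 33 members 28 rose, 3 fell and 2 (Atp6v0d1 and Atp6v1h) did not pass, where 27.1% of 12798 genes rose and 26.5% fell (53.6% in all). The same 31 had groups that did not overlap, as had 59.2% of all genes (31.0% higher and 28.2% lower). The median log2 fold change was 0.58 over the members and -0.0009 over all genes.

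Atp6v0d2, on chromosome 4 from 19876841 to 19922605, had 1634, 1653 and 1659.6 CPM in Mut AdCtrl, against 561, 595 and 595 CPM in Mut libraries, 2.8-fold higher (log2 fold change 1.49, SE 0.04, adjusted p = 1.25e-24). Atp6v1c1 had 633, 655 and 635 CPM in Mut AdCtrl, against 281, 282 and 278 CPM in Mut libraries, 2.27-fold higher. The alpha-galactosidase Gla had 449, 470.1 and 465 CPM in Mut AdCtrl, against 216, 203 and 214 CPM in Mut libraries, 2.17-fold higher. These 3 genes led the rise, with groups far apart. Next came the cathepsins Ctsh, at 368, 379 and 384 CPM in Mut AdCtrl, against 181, 175 and 180.1 CPM in Mut libraries, and Ctsl, at 3002, 3027 and 2938 CPM in Mut AdCtrl, against 1409, 1437 and 1469 CPM in Mut libraries. Lipa, at 3417, 3428 and 3472 CPM in Mut AdCtrl, against 1695, 1771 and 1893 CPM in Mut libraries, rose by 0.94, and so did Hexa.

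Mitf went against this, with 198, 192 and 198 CPM in Mut AdCtrl, against 388, 394 and 365 CPM in Mut libraries, a log2 fold change of -0.97 (SE 0.05, adjusted p = 6.39e-18). Tfeb, at 73.9, 71.8 and 73.9 CPM in Mut AdCtrl, against 52.6, 54.5 and 62.6 CPM in Mut libraries, rose by 0.35 (adjusted p = 6.56e-05), and Tfe3 by 0.36 (adjusted p = 1.98e-07). The other members that fell were Ctsz, at 1886, 1952 and 1893 CPM in Mut AdCtrl, against 2124, 2129.7 and 2172 CPM in Mut libraries, and the sialidase Neu1, at 147, 156 and 149 CPM in Mut AdCtrl, against 177, 161 and 192 CPM in Mut libraries. Their log2 fold changes were -0.18 and -0.24. Gaa rose by 0.12 (adjusted p = 0.0348), a call lost with DESeq2 (0.11), without Mut AdCtrl replicate 1 (0.07), 2 (0.173) or 3 (0.0678) and without Mut replicate 1 (0.114) or 2 (0.123).

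The rise was uneven across the pump. Atp6v1a and Atp6v1b2, of the ATP-hydrolysing head, rose by 0.89 and 0.59 and the accessory Atp6ap1 by 0.21. Atp6v0d1 was at 271, 285 and 271 CPM in Mut AdCtrl and 239, 256 and 287 CPM in Mut libraries, and Atp6v1h at 265, 281 and 264 CPM in Mut AdCtrl and 271, 275 and 272 CPM in Mut libraries (95% interval -0.11 to 0.07). Of 12 further pump genes tested 3 rose and 2 fell, with a median of -0.06. Atp6v0a1 rose by 0.97, and Atp6v1e1 and Atp6v0b fell by 0.60 and 0.53.

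In the other lists, 25 of 32 further enzymes and cofactors rose and 2 fell between Mut AdCtrl and Mut, 13 of 17 membrane proteins rose and 4 fell, 7 of 11 sorting genes rose and 1 fell, 6 of 15 genes of mTORC1 and TFEB control rose and 2 fell, and 7 of 12 autophagy genes rose and 2 fell. The sulfohydrolase Sgsh was 10.3-fold higher and the protease Lgmn 3.04-fold higher, while Acp5 fell to 0.21 of its Mut level. Of membrane proteins the calcium channels Tpcn1 and Mcoln3 were 6.7-fold and 2.34-fold higher and the sialic acid transporter Slc17a5 2.12-fold higher. Rragd was 5.25-fold higher and Fnip2 1.35-fold higher, while Tfec fell by 1.38 on the log2 scale. Among sorting genes Gnptg rose by 0.68 and Vps18 by 0.27, and M6pr fell by 0.41. The autophagy genes Uvrag, Ulk1 and Nbr1 rose by 0.81, 0.65 and 0.61.

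Markers of other cells moved in the same comparison. Fibroblast and mesothelial markers summed to 112 to 137 CPM in Mut AdCtrl and 261 to 303 CPM in Mut libraries (7 of 7 tested fell), and resident peritoneal markers to 19.9 to 22.0 CPM in Mut AdCtrl and 103 to 119 CPM in Mut (4 of 6 tested fell and 1 rose). Macrophage markers summed to 11625 to 11850 CPM in Mut AdCtrl and 11734 to 12506 CPM in Mut (3 of 8 rose and 3 fell). B cell markers summed to 98.9 to 113 CPM in Mut AdCtrl and 73.9 to 77.0 CPM in Mut, although 2 of 3 tested fell and 1 rose (median log2 fold change -2.65). Dendritic cell markers summed to 5.00 to 5.99 CPM in Mut AdCtrl and 11.2 to 16.99 CPM in Mut (1 of 2 tested fell). Osteoclast and fused macrophage markers summed to 160.0 to 168 CPM in Mut AdCtrl and 183 to 216 CPM in Mut (2 of 4 tested rose and 2 fell). Mast cell markers (2 of 4 tested fell) summed to 4.56 to 6.82 CPM in Mut AdCtrl and 9.95 to 12.1 CPM in Mut, and neutrophil markers (1 of 1 fell) to 2.16 to 3.42 CPM in Mut AdCtrl and 7.06 to 11.5 CPM in Mut. Their part in the members' rise was not tested.

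**Figure D4:**
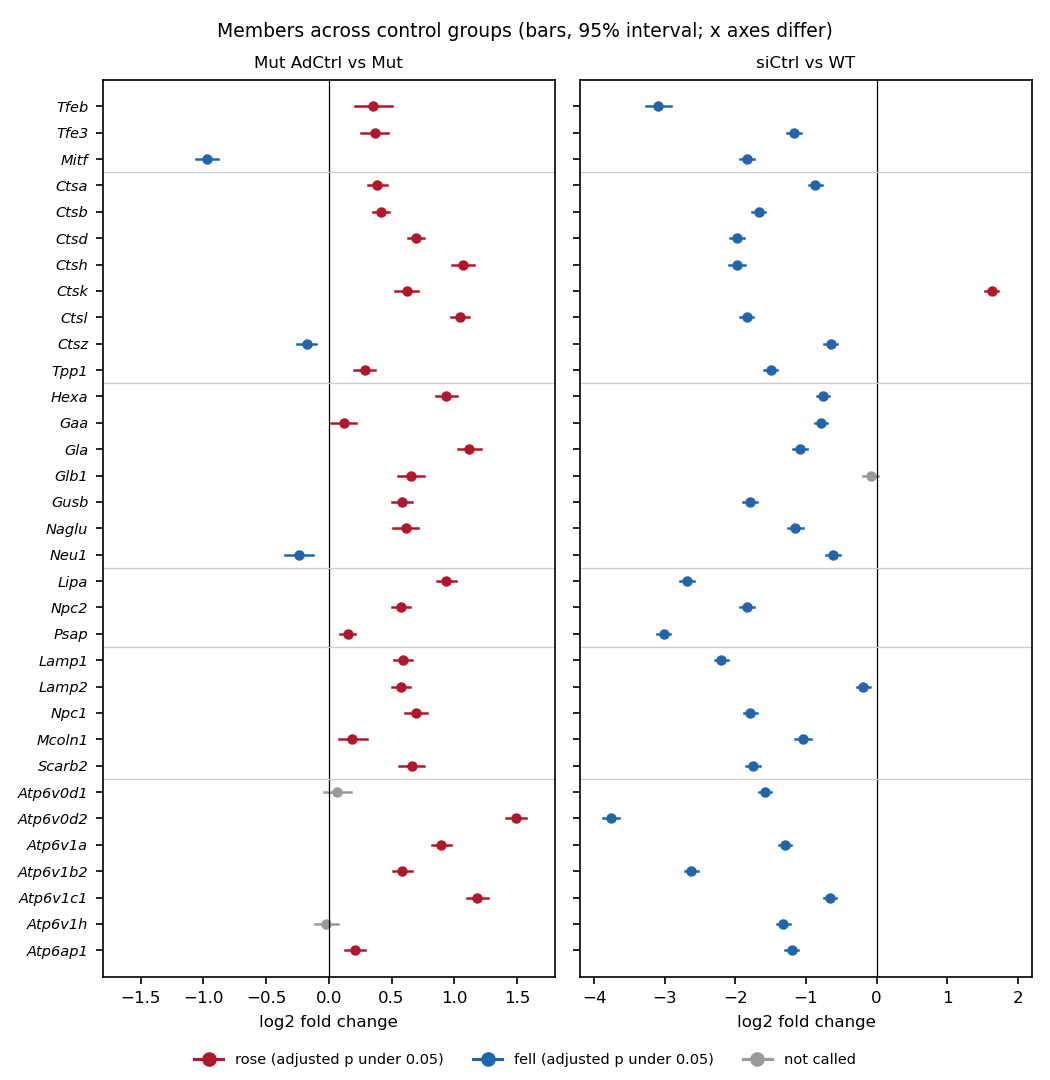
Log2 fold change (point) and 95% interval (bar) of each member between Mut AdCtrl and Mut and between siCtrl IC-21 cells and WT macrophages, n = 3 libraries a group, with x axes that differ. In Mut AdCtrl 28 members rose and Mitf, Ctsz and Neu1 fell, and in siCtrl cells 31 fell and Ctsk rose. With library totals Ctsz, Glb1, Neu1, Lamp2 and Atp6v1c1 turn positive in siCtrl cells, of which Glb1 and Lamp2 are called.

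Scaled by TMM factors, siCtrl IC-21 cells carried less RNA of nearly all members than WT macrophages. With library totals the log2 fold changes of Ctsz, Glb1, Neu1, Lamp2 and Atp6v1c1 turned positive, and of these Glb1 and Lamp2 were called higher. With TMM factors 31 of the 33 fell in siCtrl cells, 1 rose and Glb1 did not pass, where 40.1% of the 14066 genes tested rose and 40.2% fell (80.3% in all). The same 32 had groups that did not overlap, as had 81.1% of all genes (39.1% higher and 42.0% lower). The median log2 fold change was -1.5 over the members and 0.0106 over all genes. This comparison sets a cell line against primary cells from another part of the study design, so cell source, handling and part cannot be told apart. WT and siCtrl libraries also serve in comparisons above. Composition differs strongly. With library totals in place of TMM factors the median of all genes moved to 0.72, and 9176 genes were higher and 3031 lower, beside 5645 and 5654. Then 3 members rose and 25 fell, with a median of -0.79, or -1.51 relative to all genes. On that scale the log2 fold changes of Ctsz (0.06), Glb1 (0.62), Neu1 (0.09), Lamp2 (0.52) and Atp6v1c1 (0.05) were positive, and relative to the median of all genes they stood at -0.66, -0.10, -0.63, -0.20 and -0.66.

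Atp6v0d2 had 45.6, 40.9 and 46.3 CPM in siCtrl cells, against 578, 609 and 657 CPM in WT macrophages, the furthest fall, at 0.0736 of the WT level. Psap had 2444, 2468 and 2508 CPM in siCtrl cells, against 19562, 20870.3 and 21072 CPM in WT macrophages, at 0.124 of the WT level. Tfeb had 8.43, 7.74 and 8.57 CPM in siCtrl cells, against 70.5, 73.1 and 72.3 CPM in WT macrophages, at 0.117 of the WT level. In these 3, and in Lipa at 0.155 and Atp6v1b2 at 0.162 of the WT level, direction held under both scalings. Mitf fell by 1.84 and Tfe3 by 1.17 on the log2 scale. Ctsk was the exception, with 1145, 1131 and 1166 CPM in siCtrl cells, against 353, 393 and 401 CPM in WT macrophages, 3.09-fold higher (log2 fold change 1.63, SE 0.05, adjusted p = 7.69e-33; 2.33 with library totals). A smaller difference was found in Lamp2, at 454, 469 and 449 CPM in siCtrl cells, against 510.0, 539.5 and 559 CPM in WT macrophages, with a log2 fold change of -0.19 that turned to 0.52 with library totals. Glb1 was not called, at 98.8, 97.5 and 90.1 CPM in siCtrl cells and 97.9, 105 and 109.8 CPM in WT macrophages, which overlap.

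Of 99 further genes tested 73 fell and 15 rose in siCtrl cells. The enzymes Ctss, Acp5 and Gm2a fell to 0.0523, 0.0792 and 0.0929 of their WT levels, and the sorting receptors Sort1 (7, 13 and 8 counts in siCtrl libraries) and Igf2r to 0.0032 and 0.0423, with Gnptab, which starts the mannose phosphate tag, at 0.181. The chloride exchanger Clcn7 and the tetraspanin Cd63 fell to 0.141 and 0.208, and the pump subunits Atp6v1e1 and Tcirg1 to 0.116 and 0.209. Mcoln3 had counts of 0, 1 and 1 in siCtrl libraries, against 350, 384 and 558 in WT libraries. Atp6v1c2 had counts of 30, 52 and 34 in siCtrl libraries and 0 in all 3 WT libraries. Tfec, Fnip2 and Flcn had log2 fold changes of -2.69, -1.78 and -1.48. Of the autophagy genes 6 rose and 6 fell, with Wipi1 3.76-fold higher and Gabarapl1 and Ulk1 at 0.287 and 0.386 of their WT levels.

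Macrophage markers summed to 2045 to 2150 CPM in siCtrl cells and 12880 to 14212 CPM in WT macrophages (6 of 8 fell and 1 rose). Fibroblast and mesothelial markers summed to at most 0.206 CPM in siCtrl libraries, with 8 of 11 at a count of 0, and to 289 to 321 CPM in WT libraries. T cell, mast cell and neutrophil markers summed to at most 12.6 CPM in any of the 18 libraries. The part of these markers in the members' difference was not tested.

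Summed over all 33 genes, the members took 6.46, 6.44 and 6.48% of read pairs in Mut AdSmim30 libraries and 6.42, 6.52 and 6.37% in Mut AdCtrl libraries. The share was 2.13, 2.16 and 2.13% in siSmim30 and 2.25, 2.23 and 2.26% in siCtrl cells. It was 4.57, 4.53 and 4.75% in Mut and 4.74, 4.92 and 5.04% in WT libraries, with an overlap between the groups. These are shares of the library total with no TMM factor, and no test was run on them. Proteases took the largest share in every group, 2.92% ± 0.02 in Mut AdSmim30, 2.91% ± 0.04 in Mut AdCtrl, 1.23% ± 0.01 in siSmim30, 1.29% ± 0.02 in siCtrl, 2.01% ± 0.05 in Mut and 2.05% ± 0.09 in WT libraries (SD, n = 3 each). Lipid-handling genes, most of whose counts are Psap, took 1.77% ± 0.06 in Mut and 1.98% ± 0.04 in WT libraries, and 0.405% ± 0.005 in siSmim30 and 0.435% ± 0.003 in siCtrl cells.

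**Figure D5:**
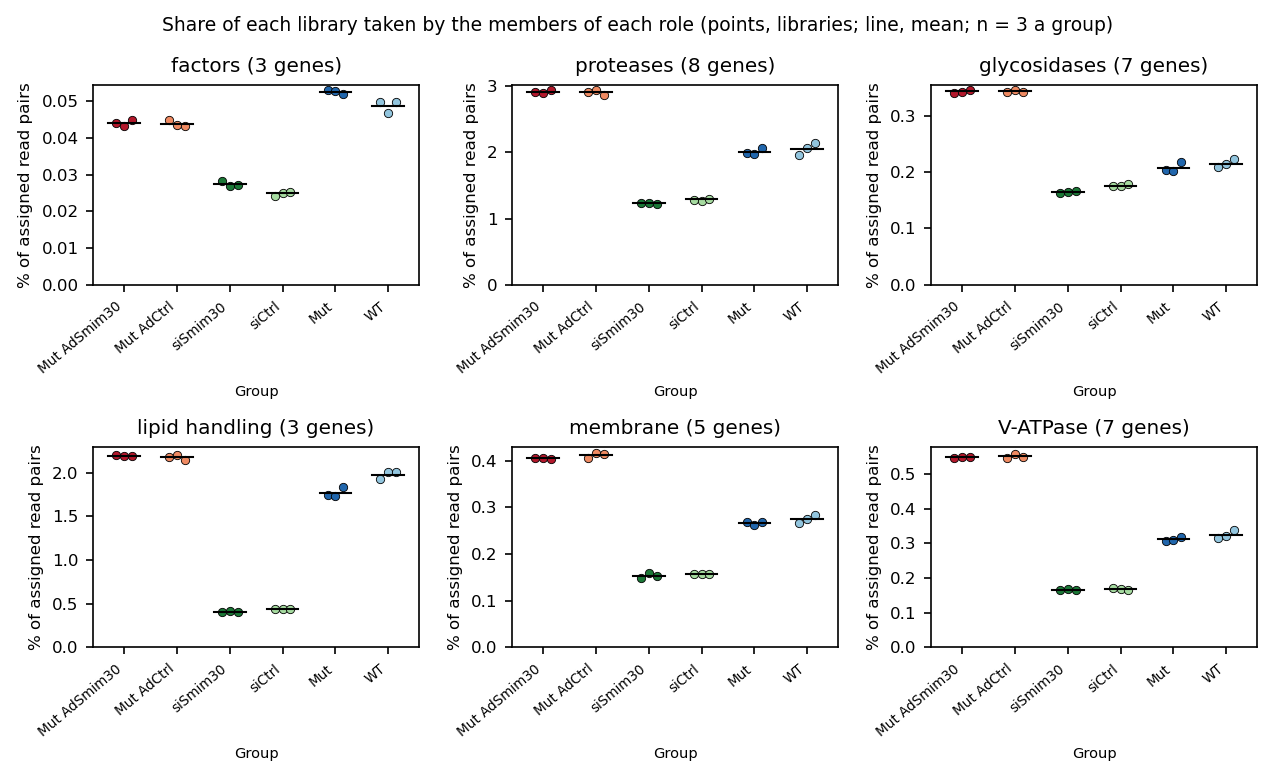
Share of assigned read pairs taken by the members of each role in each library (points, with the mean as a line, n = 3 a group), each axis from 0. The shares of all roles but the factors are highest in both virus groups and lowest in both IC-21 groups, and the factors are highest in Mut.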

How the data were processed

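RNA from LPS-treated macrophages was sequenced in 18 strand-specific libraries, 6 groups of 3. The deposited values are raw read-pair counts per gene, made with featureCounts 2.0.3 in its reverse-stranded paired mode on GENCODE M25 (GRCm38), per the file headers. fastp, FastQC and HISAT2 are named in the submitters' processing notes, with versions not given in the sources used here. Symbols matched 55141 of 55401 identifiers, and 260 had none. The members and lists were chosen with earlier results of these data known.

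Counts were filtered with filterByExpr, scaled by TMM factors and tested with the quasi-likelihood F test of edgeR 4.0.16 in R 4.3.3, each comparison on its own 6 libraries and the difference between effects on 12, with Benjamini-Hochberg adjustment over all genes at 0.05. CPM for display use TMM factors over all 18 libraries, and CPM per kb divide by counted exonic length. Alternatives were RLE size factors, no filter, DESeq2 1.42.0, a replicate block, a fit of all 18 libraries, each library left out, and, chosen after seeing the data, library totals. Named are all members, Smim30 and, per further list and comparison, up to 3 called genes with the largest absolute change. Some genes that this rule would name are not reported here. Folds against groups with near 0 counts are not given.

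Replicates differed beyond sampling noise (chi-square per degree of freedom 1.67 to 5.24), so each counted as 1 library. The scripts recovered known changes in simulated counts. These changes were larger than any of the members with the mutation (at most 0.35 on the log2 scale), the siRNA (0.29) or the Smim30 virus (0.11). Recovery of changes that small was not simulated. Labels number replicates but name no shared animal or day.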

Additional observations from a re-analysis of the deposited data

Results flagged for a closer look

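The difference between the effects of the Smim30 mutation and of the Smim30 siRNA, tested in edgeR's model of 12 libraries, was past the threshold for Smim30 itself. Among 100 further lysosomal or autophagy genes tested, it was called higher in 4 and lower in 5, of which 8 are given here. Over all 14804 genes tested, 1.25% were higher and 1.26% lower (2.51% in all). Alternative settings were examined for the members and Smim30 only, not for these further genes. Smim30 RNA (2610001J05Rik) had a difference of 0.99 on the log2 scale (adjusted p = 1.85e-05), falling with the siRNA and with a log2 fold change of 0.01 with the mutation.

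Among enzymes the difference was 0.76 in Acp5 (adjusted p = 1.85e-05) and 0.54 in Ids (adjusted p = 0.0108). In the channels Tpcn2 and Mcoln2 it was -0.38 (adjusted p = 0.00176) and -0.29 (adjusted p = 0.00419).

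Of the genes that control mTORC1 and TFEB, Rragd differed by -0.53 (adjusted p = 0.0276), Fnip1 by -0.38 (adjusted p = 0.000121) and Fnip2 by -0.28 (adjusted p = 0.00599). The autophagy gene Gabarapl2 differed by 0.49 (adjusted p = 0.0321).

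Of the members, Atp6v1h, the regulatory H subunit of the pump, was lower in every Mut library than in every WT library (log2 fold change -0.13) and higher in every siSmim30 library than in every siCtrl library (0.04). It was singled out by this order of libraries, which was not tested, and in the model the difference was -0.17 (adjusted p = 0.195).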

How the results depend on the processing

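Over the 33 members, the comparisons and their alternatives gave 2573 values. Of these, 2495 kept their side of the threshold, 43 lost a call, 30 gained one and 5 reversed in direction. Direction was compared only where the main or the alternative value was called. Values called in neither count as kept even where the sign changed, as in Ctsb between Mut and WT (-0.039 to 0.037). The 5 reversed values are siCtrl against WT with library totals, at 0.061 in Ctsz, 0.62 in Glb1, 0.091 in Neu1, 0.518 in Lamp2 and 0.051 in Atp6v1c1. There the scale itself put the median of all genes at 0.72 in place of 0.01. A fit of all 18 libraries called 1198 genes and 13 members in Mut against WT, 87 genes with the virus, 263 genes and 6 members with the siRNA, and 3 members for the difference of effects. DESeq2 called 68 genes with the virus, 291 with the siRNA and 1 member for the difference, and library totals also 1 member. The cause was not tested. With 1 library left out, genes and members called ranged over 469 to 957 and 5 to 11 in Mut against WT, 66 to 453 and 0 to 0 with the virus, 309 to 422 and 6 to 9 with the siRNA, 6274 to 6666 and 30 to 32 in Mut AdCtrl against Mut, 11074 to 11438 and 32 to 33 in siCtrl against WT, and 267 to 571 and 0 to 2 for the difference, each arm left with 2 libraries. Same-numbered libraries had correlations of -0.145 to 0.089 of their deviations from the group means. In the 5 comparisons 2, 1, 1, 0 and 2 of 3 libraries correlated best with their own number. These values show no clear pairing by number but cannot exclude it, since counting noise enters them too. A replicate block called 782, 253, 546, 6688 and 11191 genes and 8, 0, 11, 31 and 32 members in them, and 415 genes and 0 members for the difference. Tfeb in IC-21, near 8 CPM, is the member that depth limits most.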
